A study of Rattus norvegicus with 4 samples.

Results

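The genes described here are the axon guidance families measured in rat aortic smooth muscle cells: semaphorins and their plexin receptors, ephrins and their Eph receptors, Slits and Robo receptors, netrins and Unc5 receptors. Members were matched by a symbol rule, chosen with earlier results of these data known, among the probe sets with a single annotated gene symbol. Each gene was represented by its brightest probe set over the 4 arrays. The rule gave 51 of the 12922 measured genes, or 0.395%. It also matched Unc50, a Golgi membrane protein, and Unc5cl, an intracellular relative of the Unc5 receptors; both fit the naming pattern without being netrin receptors, so 49 members are guidance genes proper. A further 16 rat protein-coding genes of these families, among them Efnb2, Ephb2, Efna3, Sema3d and Sema7a, were not analysed here.

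One group of cells received PDGF-BB at 30 ng/mL. The other received the vehicle alone, which was 10 mM acetic acid with 0.2% BSA. RNA was taken 3 h later and hybridised to Affymetrix arrays, 2 for PDGF-BB and 2 for vehicle. Both groups had been plated at 10000 cells per cm2, held for 24 h in 10% serum and then starved for 72 h without serum or insulin. The study looked for genes that respond early as smooth muscle cells change phenotype. The labels give no strain, passage or separate culture for the arrays, so all p-values measure the spread between arrays of a group, which may be technical.

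As background, guidance ligands were first known for steering growing axons, and they also act on vascular cells, where they attract or repel migrating cells and set their adhesion. Semaphorins signal through plexins, with neuropilins as co-receptors for the secreted class. Ephrins are bound to the membrane and meet Eph receptor tyrosine kinases on neighbouring cells, so that signals can run in both directions. Slits act through Robo receptors and netrins through Unc5 and Dcc receptors, and all of these pathways act on the actin cytoskeleton. PDGF-BB is itself a chemoattractant for vascular smooth muscle.

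The array medians were 144 and 132 with PDGF-BB and 145 and 148 with vehicle, and log2 values correlated across probe sets at 0.993 within PDGF-BB and 0.995 within vehicle, against 0.959 to 0.963 between the groups. The second PDGF-BB array ran lower than the first at intermediate brightness, with a median log2 difference of -0.17 among probe sets of intermediate intensity, and it was the lower of the pair in 35 of the 51 members and in 70.8% of all genes. Of the 8 smooth muscle markers, none was at or below background, Acta2 and Tagln had intensities above 10000 on every array, and 3 were lower with PDGF-BB by limma: Lmod1 (log2 fold change -1.70, adjusted p 0.00246), Smtn (-0.79, 0.00930) and Myh11 (-0.70, 0.0256). The other 5 did not pass, and of these Cnn1 (log2 difference 0.26) and Myocd (0.39) had both PDGF-BB arrays above both vehicle arrays. Of the 8, 4 had log2 differences above 0 and 4 below. The part of these markers in the results below was not tested. All 6 measured endothelial markers, Pecam1 among them, were at or below the background yardstick of 80.3 on all arrays; their summed intensity was 91.4 and 94.5 with PDGF-BB and 80.7 and 81.2 with vehicle, and none was at 0. Also at or below it on all arrays were 4 of 5 macrophage and leukocyte markers and 3 of 4 neuron and Schwann cell markers. The exceptions were Cd14, at 1126 to 1473, and Tubb3. Of 5 fibroblast markers only 2 were at or below it on all arrays. The other 3 were Lum (79.0 to 109) and Pdgfra (76.1 to 86.8), both close to the yardstick, and Col1a1. Only Col1a1 of these had intensities above 10000 on every array. The yardstick is the highest intensity of any Bacillus control probe set, a rough guide because the table carries no detection calls. The small number of arrays limits the precision of every value.

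Of the 51 members, 4 were higher with PDGF-BB (Epha2, Sema4b, Efna1 and Sema6d), 8 were lower (Plxnb1, Efna4, Ephb6, Sema4g, Epha4, Unc5c, Sema5a and Sema3f) and 39 did not pass, at a limma adjusted p under 0.05. The members' share called was 23.5%, against 27.6% of all genes, so the families as a whole were called about as often as any gene. By direction, 7.84% of members were higher, against 12.4% of all genes, and 15.7% were lower, against 15.2%. The median log2 fold change of the members was -0.10, and that of all genes -0.03. The balance over all genes differed with the scaling, and 1601 of 3570 called genes were higher with the deposited values. The share higher was 39.8% of 4770 called after quantile normalization and 48.6% of 4320 after cyclic loess normalization. After array medians were subtracted, 2232 of 4240 (52.6%) were higher, and the median of all genes was 0.05. With that scaling 6 members were higher and 9 lower, and all 12 calls were kept. On arrays of bulk RNA, fewer cells of a type and less RNA per cell cannot be told apart. In 31 members the PDGF-BB and vehicle arrays did not overlap, 11 with PDGF-BB above and 20 with PDGF-BB below. Of all 12922 genes, 67.5% showed such a separation, 3836 with PDGF-BB above and 4886 (37.8%) with PDGF-BB below. Of the 51 members, 2 were called at least 2-fold higher, Epha2 and Sema4b, and 3 at least 2-fold lower, Plxnb1, Efna4 and Ephb6. Among all genes, 8.31% were called with a change of at least 2-fold in either direction.

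**Figure D1:**
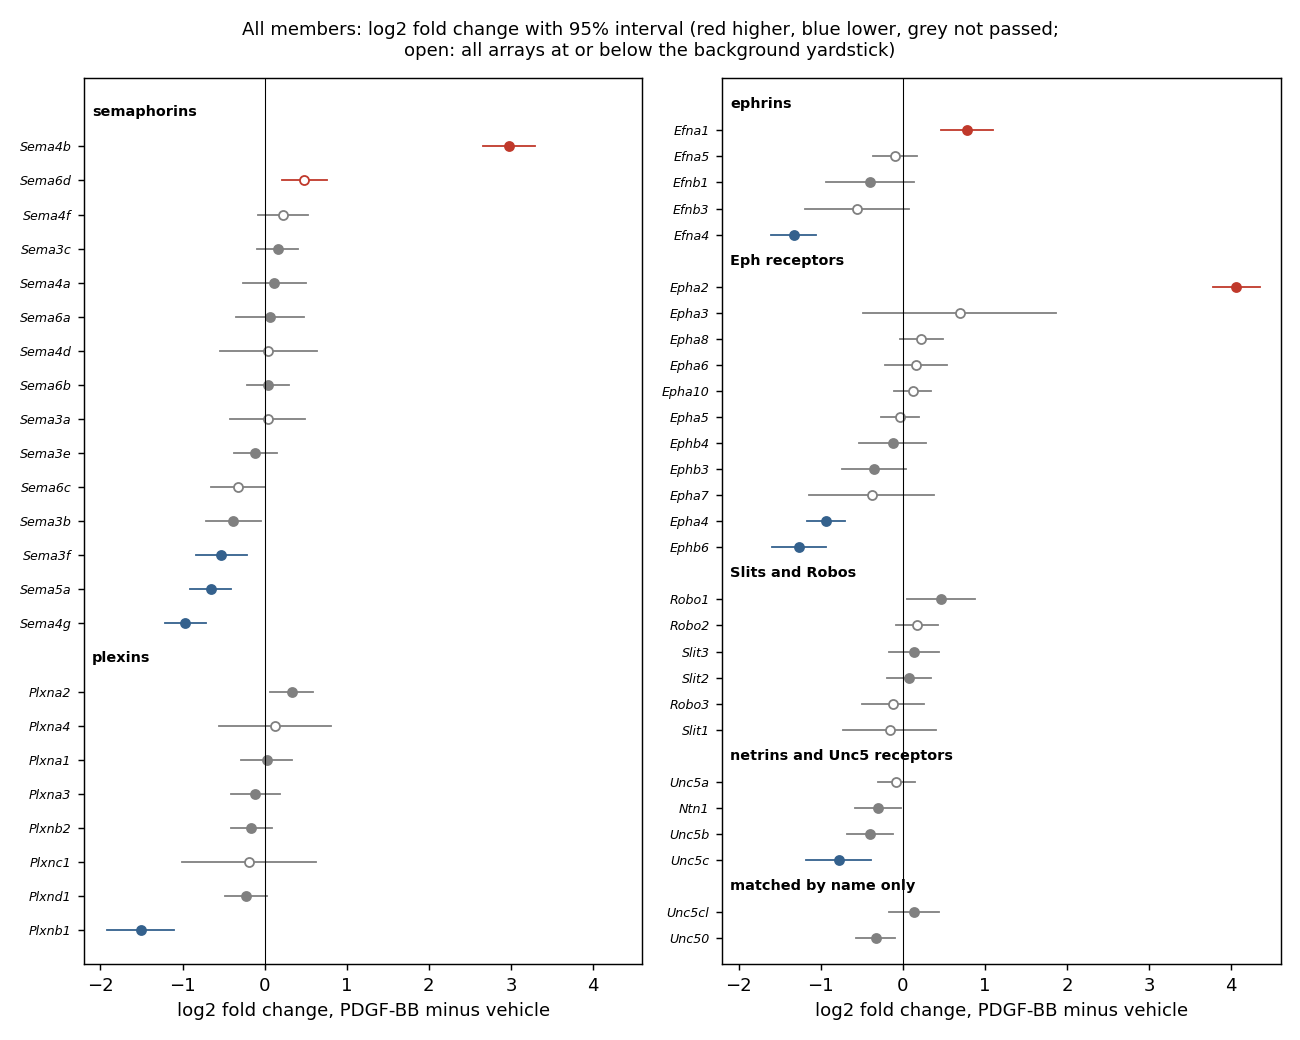
Log2 fold change of each of the 51 members, PDGF-BB minus vehicle (x axis), by family, with 95% intervals not adjusted for multiple tests; red passed as higher, blue as lower, grey did not pass, and open circles mark genes at or below the background yardstick on all arrays. Epha2 at 4.06 and Sema4b at 2.98 stand far to the right of the other members, which lie between -1.51 and 0.78.

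The largest change was that of Epha2, a receptor tyrosine kinase for ephrin-A ligands. Its intensity was 2133 and 2091 on the PDGF-BB arrays and 120 and 103 on the vehicle arrays. Both PDGF-BB values were far above both vehicle values, and the replicates of each group lay close together. The log2 fold change was 4.06 (limma, SE 0.11, adjusted p 0.000479), a 16.7-fold rise that ranked 23 of the 1601 genes called higher. Sema4b, a membrane-bound class 4 semaphorin, had 1183 and 1005 with PDGF-BB and 120 and 129 with vehicle. Here too all arrays of the groups were separate, and the log2 fold change was 2.98 (limma, SE 0.12, adjusted p 0.000794), 7.88-fold higher and rank 74 of 1601. Both calls held in each of the 14 alternative analyses, including the 4 that left out 1 array.

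The promoters of Epha2 and Sema4b are shown because these genes rose most, and those of Efna1 and Efna4 because these linked ephrin genes were called in opposite directions. Sequences are from RefSeq on the GRCr8 build, 250 bases before to 50 bases after the annotated start, printed in the direction of transcription. Capitals mark matches to 5 motifs searched on both strands: the AP-1 site TGANTCA, the cyclic AMP response element (CRE) TGACGTCA, the EGR site GCGNGGGCG, the E-box CACGTG and the CArG box of serum response factor. No window shown held overlapping matches.
Epha2, chr5:158888379-158888678, plus strand: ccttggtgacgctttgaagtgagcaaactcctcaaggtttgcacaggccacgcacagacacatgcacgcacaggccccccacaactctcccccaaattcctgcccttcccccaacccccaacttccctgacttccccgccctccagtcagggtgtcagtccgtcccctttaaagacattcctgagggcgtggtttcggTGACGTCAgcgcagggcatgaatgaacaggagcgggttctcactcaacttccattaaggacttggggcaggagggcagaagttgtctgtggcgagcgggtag
Sema4b, chr1:143558547-143558846, plus strand: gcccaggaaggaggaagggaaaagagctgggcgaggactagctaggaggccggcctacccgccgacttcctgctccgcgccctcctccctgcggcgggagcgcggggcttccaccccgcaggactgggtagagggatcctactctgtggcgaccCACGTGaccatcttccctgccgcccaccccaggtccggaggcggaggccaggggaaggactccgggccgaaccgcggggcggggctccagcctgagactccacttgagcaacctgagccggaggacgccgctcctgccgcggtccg
Efna1, chr2:176986772-176987071, minus strand: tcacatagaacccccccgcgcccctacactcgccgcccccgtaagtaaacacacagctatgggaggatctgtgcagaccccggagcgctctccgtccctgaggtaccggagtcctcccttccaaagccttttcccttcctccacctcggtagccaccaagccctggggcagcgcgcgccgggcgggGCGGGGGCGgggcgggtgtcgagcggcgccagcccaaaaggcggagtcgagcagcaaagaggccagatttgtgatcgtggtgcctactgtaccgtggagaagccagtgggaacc
Efna4, chr2:177050664-177050963, minus strand: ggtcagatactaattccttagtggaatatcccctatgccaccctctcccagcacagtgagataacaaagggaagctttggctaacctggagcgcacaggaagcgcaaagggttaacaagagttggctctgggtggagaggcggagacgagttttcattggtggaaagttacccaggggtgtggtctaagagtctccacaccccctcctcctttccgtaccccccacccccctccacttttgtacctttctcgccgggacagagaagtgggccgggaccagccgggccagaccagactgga
In the Epha2 window the capitals are a full CRE whose first base lies 52 bases before the start. Of 27457 rat promoters of this length, 1.91% hold that motif. In the Sema4b window they are an E-box 96 bases before the start, a motif found in 6.65% of promoters. The Efna1 window holds an EGR match 64 bases before its start, which 5.29% of promoters share, and the Efna4 window holds none of the 5 motifs. Promoter windows were found for 37 of the 51 members. Among these the CRE was present only in Epha2, the AP-1 site only in Epha10 (7.33% of all promoters) and the CArG box only in Sema3c (1.64%), while 6 held the EGR site and 4 the E-box. A match is a run of letters and was not tested as a binding site.

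**Figure D2:**
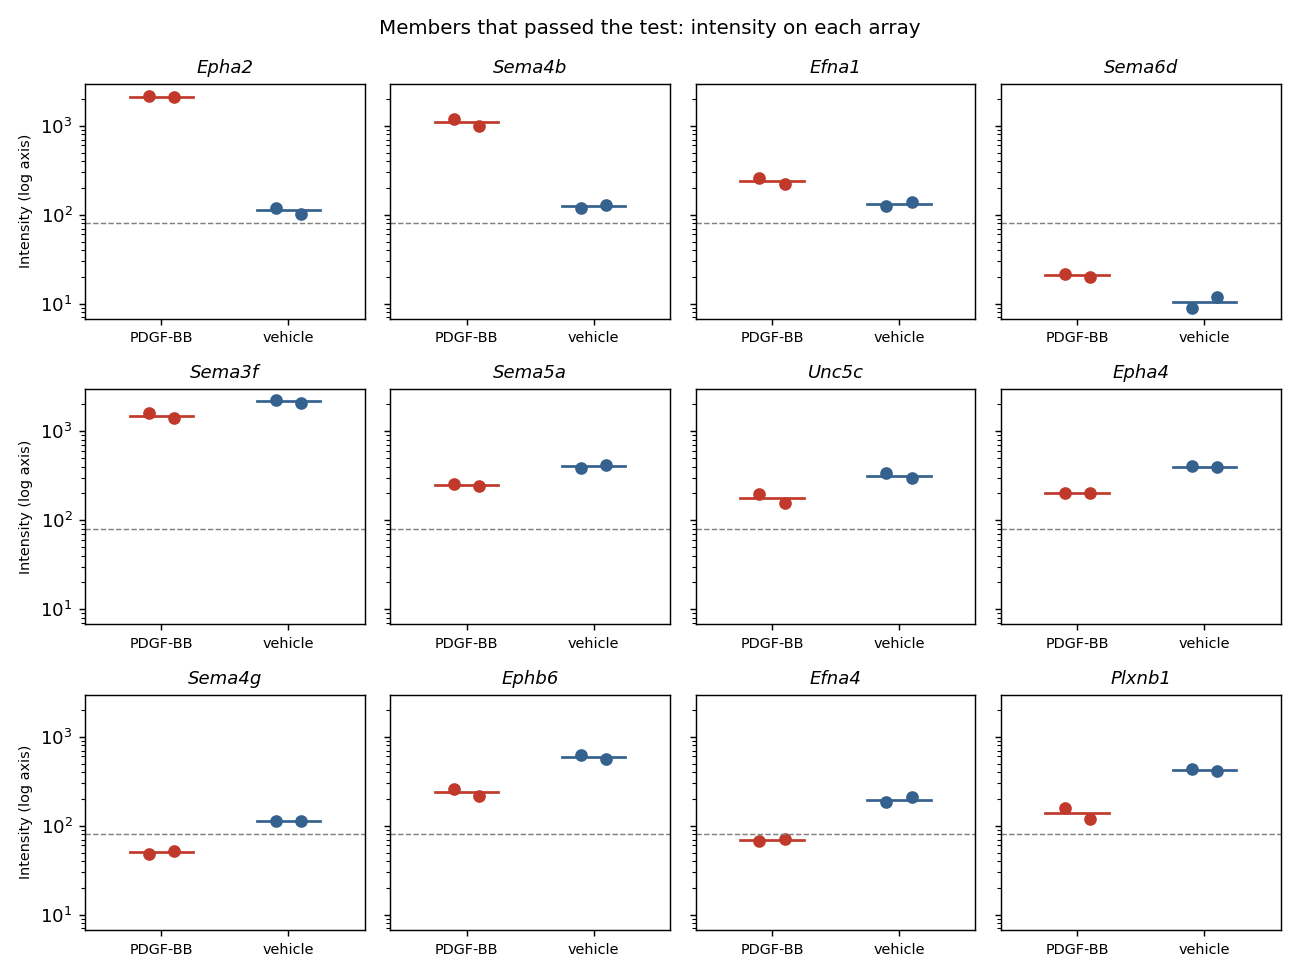
Intensity (log axis) on each array for the 12 members that passed the test, PDGF-BB in red and vehicle in blue, with the group mean as a bar and the background yardstick of 80.3 dashed. The arrays of the groups are separate in all 12 panels, and Sema6d lies wholly below the dashed line.

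Among the ephrins, the membrane-bound ligands, 1 of 5 measured rose, 1 fell and 3 did not pass. That is 40% called, against 27.6% of all genes. Efna1 encodes ephrin-A1, a ligand of EphA2. It had intensities of 260 and 223 with PDGF-BB and 126 and 139 with vehicle, without overlap. Its log2 fold change was 0.78 (limma, SE 0.12, adjusted p 0.0149), or 1.72-fold higher. A second Efna1 probe set also rose, by 0.67 (SE 0.11, limma adjusted p 0.0171), with 138 and 124 against 72.2 and 80.9. The Efna1 call ended when PDGF-BB replicate 1 (limma adjusted p 0.0512), vehicle replicate 1 (0.110) or vehicle replicate 2 (0.0830) was left out. Efna4, which encodes ephrin-A4, went the other way, with 67.0 and 70.5 under PDGF-BB and 185 and 209 under vehicle. Both PDGF-BB values were at or below the background yardstick, so the fall was at least 2.21-fold (log2 fold change -1.33, SE 0.10, limma adjusted p 0.00339), and it stayed called in all 14 alternatives. The 2 genes lie near each other on rat chromosome 2 of GRCr8, on the same strand, with 4 annotated genes between them, of which the ephrin gene Efna3 is the only protein-coding one.

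The remaining ephrins gave smaller differences. Efnb1, a ligand of EphB receptors, had 165 and 109 with PDGF-BB and 181 and 184 with vehicle, a log2 difference of -0.40 (SE 0.20, limma adjusted p 0.228). The second PDGF-BB array was well below the first, which lay close to the vehicle arrays. Its call appeared when PDGF-BB replicate 1 was left out (log2 fold change -0.67, limma adjusted p 0.0406), and a second, dimmer probe set had a log2 difference of 0.11. Efna5 and Efnb3 were at or below the yardstick on all arrays, with highest values of 23.5 and 17.7.

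Of the 11 Eph receptors, Epha2 rose, Epha4 and Ephb6 fell and 8 did not pass, or 27.3% called, against 27.6% of all genes. EphA4 is a receptor that binds ephrins of both the A and the B class. Epha4 had 204 and 200 with PDGF-BB and 409 and 393 with vehicle, a log2 fold change of -0.94 (limma, SE 0.09, adjusted p 0.00502), or 1.91-fold lower with clear separation of the arrays. The gene has 4 probe sets, 3 of them called lower. The largest fall among these was in a probe set of nearly the same brightness, at 181 and 116 with PDGF-BB and 470 and 505 with vehicle, a log2 fold change of -1.64 (limma, SE 0.21, adjusted p 0.0107). The Epha4 call ended without vehicle replicate 1 (limma adjusted p 0.0596) or vehicle replicate 2 (0.0528). EphB6 is an Eph family member without kinase activity. Ephb6 had 256 and 217 with PDGF-BB and 621 and 560 with vehicle, which gave a log2 fold change of -1.27 (limma, SE 0.12, adjusted p 0.00545), 2.40-fold lower. With vehicle replicate 1 removed it missed the threshold (limma adjusted p 0.0513).

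The other B-class receptors were measured above background without passing. Ephb4, the receptor of ephrin-B2, had 683 and 535 with PDGF-BB and 694 and 628 with vehicle. The groups overlapped, and the log2 difference was -0.12 with a 95% interval of -0.53 to 0.28 (limma adjusted p 0.608). Ephb3 had 311 and 401 with PDGF-BB and 456 and 452 with vehicle, a log2 difference of -0.35 (95% interval -0.74 to 0.04, limma adjusted p 0.166). Both PDGF-BB values of Ephb3 were below the vehicle values, but they differed from each other by more than the nearer one did from vehicle. The 6 receptors Epha3, Epha5, Epha6, Epha7, Epha8 and Epha10 were at or below the yardstick on all arrays, with a highest value of 66.7 for Epha10.

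Semaphorins are ligands, secreted in class 3 and membrane-bound in classes 4 to 6. Of 15 measured, 2 were higher, 3 lower and 10 did not pass, or 33.3% called, against 27.6% of all genes. Besides Sema4b, the higher one was Sema6d, at 21.6 and 20.0 with PDGF-BB and 8.91 and 11.8 with vehicle. All of these values are under the background yardstick, so no fold is given, and the call ended in 7 of 13 alternatives, among them each of the 4 that left out an array (limma adjusted p 0.0927 to 0.220, against 0.0345 with all arrays).

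Sema3f, a secreted semaphorin that binds neuropilin-2, had 1608 and 1393 with PDGF-BB and 2254 and 2084 with vehicle. The arrays did not overlap, and the log2 fold change was -0.53 (limma, SE 0.12, adjusted p 0.0379), 1.44-fold lower. A second Sema3f probe set fell further, by 0.97 on the log2 scale (SE 0.14, limma adjusted p 0.0136), with arrays at 503 and 422 with PDGF-BB and 996 and 848 with vehicle. The call on the brighter probe set ended in every fit that left out an array, with limma adjusted p-values of 0.0528, 0.0980, 0.214 and 0.149 without PDGF-BB replicates 1 and 2 and vehicle replicates 1 and 2 in that order, and with an offset of 1 in place of 16 before the log2 step (0.0725). Sema5a, a membrane semaphorin with thrombospondin repeats, had 255 and 245 with PDGF-BB and 389 and 419 with vehicle. Its log2 fold change was -0.66 (limma, SE 0.09, adjusted p 0.0128), and the call ended without PDGF-BB replicate 2 (0.0579), vehicle replicate 1 (0.0899) or vehicle replicate 2 (0.112). Sema4g, a class 4 relative of Sema4b, had 47.6 and 52.6 with PDGF-BB and 112 and 114 with vehicle. The PDGF-BB values were below the yardstick, so the fall was at least 1.34-fold (log2 fold change -0.97, SE 0.09, limma adjusted p 0.00533). It was not called without vehicle replicate 1 (0.0571) or vehicle replicate 2 (0.0574).

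Class 3 semaphorins other than Sema3f did not pass. Sema3c had 2513 and 2429 with PDGF-BB and 2129 and 2300 with vehicle. The PDGF-BB arrays were the higher ones, by 0.16 on the log2 scale (95% interval -0.09 to 0.41, limma adjusted p 0.301). Sema3e, a ligand that binds plexin-D1 directly, had 410 and 391 with PDGF-BB and 455 and 415 with vehicle, a log2 difference of -0.12 (limma adjusted p 0.462). Sema3b had 184 and 150 with PDGF-BB and 218 and 224 with vehicle, a log2 difference of -0.38 (SE 0.12, limma adjusted p 0.0981) that passed only when probe sets near background were left out of the test (0.0241). Sema4a, Sema6a and Sema6b, all above the yardstick, overlapped between the groups, with log2 differences of 0.12, 0.07 and 0.04. Sema3a, Sema4d, Sema4f and Sema6c were at or below the yardstick on all arrays, with a highest value of 78.0 for Sema4f.

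Plexins are the semaphorin receptors, and 1 of 8 passed, or 12.5%, against 27.6% of all genes. Plxnb1, the receptor of Sema4D, had 157 and 118 with PDGF-BB and 429 and 408 with vehicle. The groups were far apart, and the log2 fold change was -1.51 (limma, SE 0.15, adjusted p 0.00584), 2.85-fold lower and rank 141 of the 1969 genes called lower. The size differed between its 3 probe sets: a second one fell by 0.49 on the log2 scale (limma adjusted p 0.0282), and the last gave a log2 difference of -0.15 (SE 0.11, limma adjusted p 0.413). The call on the brightest ended with vehicle replicate 1 removed (limma adjusted p 0.0511). Plxnb2, a plexin of the same class, had 2394 and 2336 with PDGF-BB and 2748 and 2547 with vehicle, and the log2 difference of -0.16 (95% interval -0.41 to 0.09, limma adjusted p 0.288) did not pass.

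The A-class plexins transmit class 3 semaphorin signals together with neuropilins. Plxna1 had 1015 and 876 with PDGF-BB and 896 and 959 with vehicle, overlapping values with a log2 difference of 0.02 (95% interval -0.28 to 0.33, limma adjusted p 0.906); the difference was -0.04 after quantile normalization. Plxna3 had 446 and 493 with PDGF-BB and 541 and 480 with vehicle, a log2 difference of -0.11 (limma adjusted p 0.526), while a dimmer Plxna3 probe set was called lower (log2 fold change -0.50, limma adjusted p 0.0426). Plxna2 lay at the yardstick, with 85.4 and 80.1 under PDGF-BB and 59.1 and 66.4 under vehicle (log2 difference 0.33, limma adjusted p 0.0824). It was called higher after each of the 3 rescalings between arrays and when its probe sets were averaged (limma adjusted p 0.0119 to 0.0475). Its second probe set, below the yardstick on all arrays, had 77.5 and 40.9 with PDGF-BB and 5.63 and 8.32 with vehicle, and was called higher (limma adjusted p 0.0168). Plxnd1 had 310 and 292 with PDGF-BB and 371 and 340 with vehicle, a log2 difference of -0.23 (limma adjusted p 0.175). Plxna4 and Plxnc1 were below the yardstick on all arrays.

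**Figure D3:**
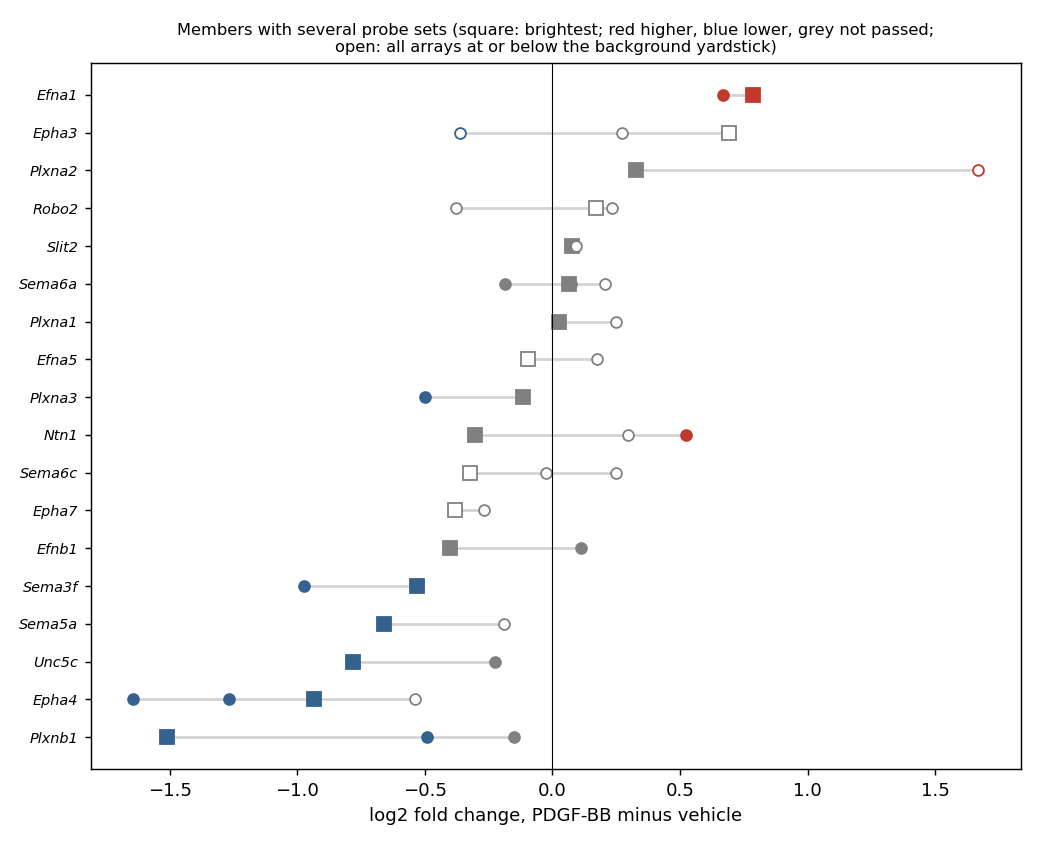
Log2 fold change, PDGF-BB minus vehicle (x axis), of every probe set of the 18 members with several; squares are the brightest probe set of a gene, red passed as higher, blue as lower, grey did not pass, open symbols lie at or below the background yardstick on all arrays. Both Efna1 probe sets and both Sema3f probe sets passed in the same direction, while Plxnb1 ran between -1.51 and -0.15 and Ntn1 had one probe set called higher beside a brighter one at -0.30.

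In all, 18 members had several probe sets, and no gene had probe sets called in both directions. In 2 of them (Efna1 and Sema3f) every probe set was called the same way as the brightest. In 2 others (Sema5a and Unc5c) the brightest was called and no other was. In 4 (Epha3, Ntn1, Plxna2 and Plxna3) the brightest did not pass although another probe set did. Of all probe sets on the array, 24.4% were called, and of the 27 dimmer probe sets of members 9 were.

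For netrins and their receptors, 1 of 4 members fell and none rose, or 25% called, against 27.6% of all genes. All 4 had both PDGF-BB arrays below both vehicle arrays, as had 37.8% of all genes. Of these 4, Unc5a was below the background yardstick on all arrays and Ntn1 on its PDGF-BB arrays. Unc5c, a receptor that mediates repulsion from netrin-1, had 198 and 157 with PDGF-BB and 335 and 296 with vehicle. The log2 fold change was -0.78 (limma, SE 0.15, adjusted p 0.0260), 1.72-fold lower, and a second probe set had a log2 difference of -0.22 (limma adjusted p 0.256). The call ended without PDGF-BB replicate 2 (0.0779), vehicle replicate 1 (0.147) or vehicle replicate 2 (0.0999), and with an offset of 1 in place of 16 before the log2 step (0.0587). Unc5b, a netrin-1 receptor also found in vessels, had 418 and 368 with PDGF-BB and 520 and 528 with vehicle, a log2 difference of -0.40 (95% interval -0.68 to -0.12, limma adjusted p 0.0568). It missed the threshold narrowly and passed in 7 of 14 alternatives. Ntn1, the ligand, had 79.7 and 68.2 with PDGF-BB and 94.0 and 95.6 with vehicle on its brightest probe set, which did not pass (limma adjusted p 0.112). A second Ntn1 probe set had 78.3 and 83.6 with PDGF-BB and 54.7 and 48.4 with vehicle and was called higher (limma adjusted p 0.0267). The vehicle values of that probe set were below the yardstick and the PDGF-BB values close to it, so the rise was at least 1.01-fold, and no direction is given for Ntn1.

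None of the 6 Slit and Robo genes passed by limma with the deposited scaling and all probe sets tested, while 27.6% of all genes did. Robo1, a Slit receptor, had 378 and 291 with PDGF-BB and 224 and 247 with vehicle. Both PDGF-BB arrays were the higher ones, by 0.47 on the log2 scale (SE 0.16, 95% interval 0.05 to 0.89, limma adjusted p 0.101). Robo1 was called in 4 alternatives, the 3 rescalings between arrays and the test of probe sets above background (limma adjusted p 0.0212 to 0.0357). Its secreted ligand Slit2 had 286 and 262 with PDGF-BB and 249 and 270 with vehicle, values that overlapped (log2 difference 0.08, 95% interval -0.19 to 0.35, limma adjusted p 0.644). Slit3 overlapped as well, at 83.1 and 69.4 with PDGF-BB and 70.2 and 65.6 with vehicle, and Slit1, Robo2 and Robo3 were below the yardstick. Of the genes matched by name only, Unc50 had 1532 and 1469 with PDGF-BB and 1848 and 1929 with vehicle (log2 difference -0.33, limma adjusted p 0.0637), and Unc5cl overlapped between the groups (log2 difference 0.13, limma adjusted p 0.460).

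Low signal limited what could be seen. In 19 of the 51 members all arrays were at or below the background yardstick, so a difference in their expression could not be told from background signal. That holds for Sema6d too, the only one of them called and 1 of the 4 members counted as higher. Of the 32 others, 11 passed, against 36.2% of the 9209 genes not wholly at or below the yardstick. The plot of all genes by brightness shows where the members lie.

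**Figure D4:**
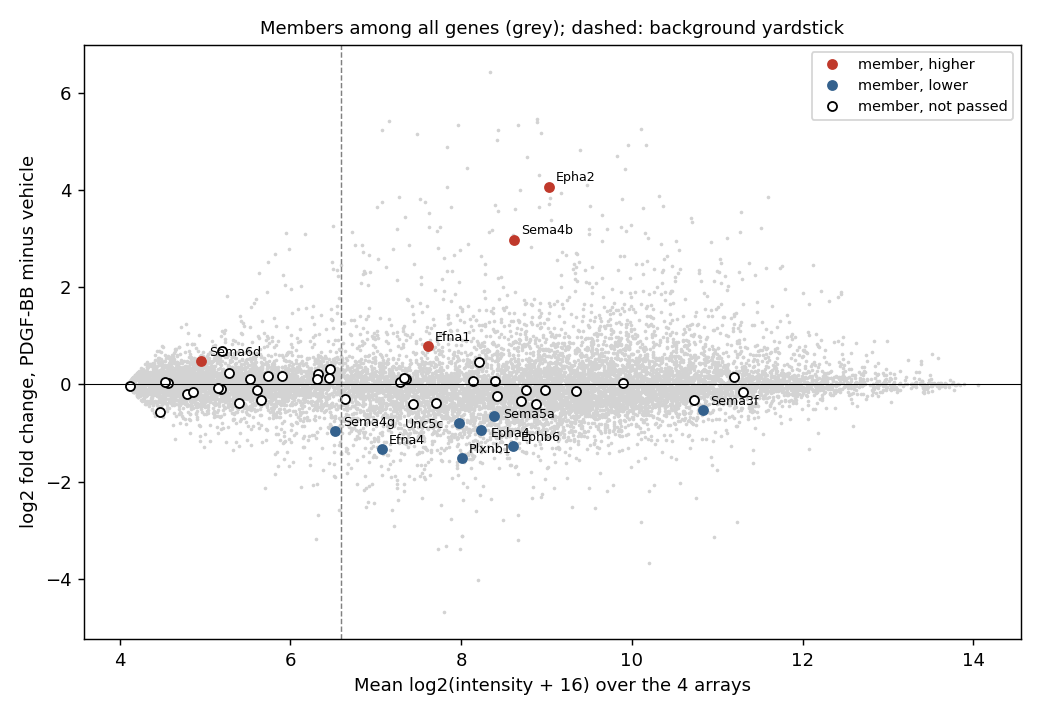
Log2 fold change, PDGF-BB minus vehicle (y axis), against mean log2(intensity + 16) over the 4 arrays (x axis) for all 12922 genes in grey and the 51 members as larger circles, red higher, blue lower, open not passed; the dashed line is the background yardstick. Epha2 and Sema4b lie among the larger increases of the array, and most members lie near 0.

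Genes that work with these families but carry other names were taken from 3 lists, of which 2 are described by gene. Of 63 measured, 13 were higher, 5 lower and 45 did not pass, or 28.6% called, against 27.6% of all genes; 20.6% were higher, against 12.4%, and 7.94% lower, against 15.2%. The median log2 fold change was 0.09, and that of all genes was -0.03. The lists were chosen with results of these data known, so the counts describe them and support nothing further. Of 17 co-receptors and other receptors or ligands, 3 were higher, 1 lower and 13 did not pass, or 23.5% called. The semaphorin co-receptor Nrp1 had 2680 and 2429 with PDGF-BB and 1029 and 1110 with vehicle, a log2 fold change of 1.24 (limma, SE 0.10, adjusted p 0.00403). Nrp2, the co-receptor preferred by Sema3F, had 136 and 116 with PDGF-BB and 150 and 168 with vehicle, a log2 difference of -0.30 (limma adjusted p 0.153). Rgma, a ligand of neogenin, fell by 1.59 on the log2 scale (SE 0.09, limma adjusted p 0.00154). Flrt2, which binds Unc5 receptors, rose by 1.07 and the heparan sulfate proteoglycan Gpc1 by 0.63 on that scale. Dcc, the attractive netrin receptor, was at or below 7.64 on all arrays.

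Of 26 cytoskeletal effectors, 5 were higher, 2 lower and 19 did not pass, or 26.9% called, against 27.6% of all genes. By direction, 19.2% were higher, against 12.4% of all genes, and 7.69% lower, against 15.2%. Rock2, a kinase that acts on actin and myosin, had 1482 and 1325 with PDGF-BB and 456 and 548 with vehicle, a log2 fold change of 1.46 (limma, SE 0.13, adjusted p 0.00478). Mical2, an enzyme that oxidises actin, rose by 1.10 on the log2 scale (limma adjusted p 0.00454). Vasp, which promotes actin filament growth, was also higher, with 5266 and 5233 under PDGF-BB and 2674 and 2562 under vehicle (limma adjusted p 0.00441). Ablim1, an actin-binding LIM protein, had 71.8 and 59.7 with PDGF-BB and 152 and 129 with vehicle. The PDGF-BB values were below the yardstick, so the fall was at least 1.62-fold (limma adjusted p 0.0129), a call that ended when its probe sets were averaged (0.0656). Some of these calls ended when 1 array was left out, which left a group with 1 array and gave fewer calls over all genes as well. With vehicle replicate 1 removed, the adjusted p by limma came to 0.0599 for Flrt2, 0.103 for Gpc1 and 0.0896 for Ablim1. With vehicle replicate 2 removed it was 0.0525 for Flrt2 and Vasp, 0.127 for Gpc1 and 0.0594 for Ablim1. Gpc1 also missed without PDGF-BB replicate 1 (0.0553) or 2 (0.0515), and Ablim1 without PDGF-BB replicate 2 (0.0645).

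**Figure D5:**
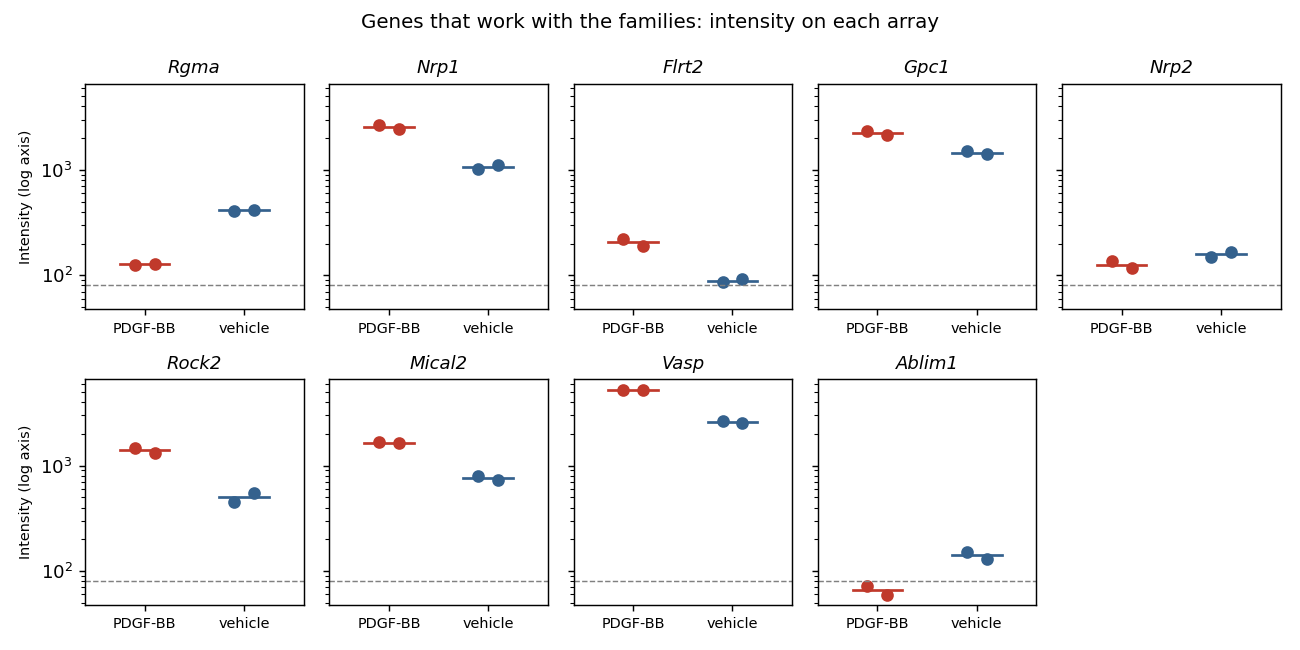
Intensity (log axis) on each array for named co-receptors, ligands and cytoskeletal effectors that work with the guidance families, PDGF-BB in red and vehicle in blue, with group means as bars and the background yardstick of 80.3 dashed. Nrp1 and Rock2 are higher and Rgma lower with PDGF-BB, and both PDGF-BB arrays of Ablim1 lie below the dashed line.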

How the data were processed

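Per the labels, biotin-labelled cRNA was hybridised. The deposited table holds probe set intensities on a linear scale, as the values show; which software, background correction and scaling produced them is not given in the sources used here. Of 23764 probe sets, 57 array controls were left out and 23707 tested. GEO's platform annotation gave 1 symbol to 17279 probe sets and 12922 genes, of which 3256 have several probe sets. The brightest probe set had the highest mean of log2(intensity + 16).

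That log2 scale, computed here from the deposited intensities without further scaling, understates changes of dim genes. The groups were compared with limma 3.58.1 (lmFit, eBayes; R 4.3.3). P-values are two-sided and adjusted over all probe sets by Benjamini-Hochberg, with a threshold of 0.05; 95% intervals use the moderated SE. Fold changes are PDGF-BB minus vehicle. At-least folds set values at or below 80.3 to 80.3. The procedure was tested on simulated data. Members and lists were chosen with earlier results of these data known. Values are given for each member that passed and the 2 brightest of each family, with other members added after their values were seen, and of 2 lists for the 4 largest called changes and the neuropilins; Dcc was added after its values were seen. Of the 3 lists, 1 is not reported here by gene. The alternatives tried were offsets of 1 and 64, quantile, cyclic loess and median scaling, a background filter, an intensity trend, adjustment per gene, averaged probe sets, a replicate block and leaving out each array.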

Additional observations from a re-analysis of the deposited data

How the results depend on the processing

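The calls of Epha2, Sema4b and Efna4 held in all 14 alternatives, and no called member changed direction in any. With all arrays kept, the members called numbered 3 to 6 higher and 6 to 12 lower, against 4 and 8. All genes called numbered 2578 to 4770 in these fits, against 3570. The 12 lower came from the background filter, which tested 30 members and called 4630 of 8917 genes. Leaving out 1 array, which assumes that the lone array of a group varies like the others, gave 2 to 3 members higher and 1 to 8 lower, 6 to 10 genes of the 3 lists higher and 2 to 5 lower, and 786 to 2683 of all genes. The fewest members, 3 in all, were called without vehicle replicate 1, and 5 without vehicle replicate 2. Genes of the lists called lower numbered 8 with an offset of 64, 10 after quantile normalization, 14 among probe sets above background and 8 with an intensity trend, against 5; the causes were not tested, except that the filter tests fewer probe sets. With the replicate number as a block, 3 members were higher, 8 lower and 2992 of all genes called; among members the block changed the call of Sema6d alone (limma adjusted p 0.0634). The numbers were not treated as pairs, since no label ties them and deviations of same-numbered arrays correlated at -0.10 across probe sets. Members that did not pass reversed sign in single alternatives: Plxna1 (-0.0366, quantile), Efna5 (0.0395) and Ntn1 (0.172) with probe sets averaged, and Epha5 (0.0481) with array medians subtracted. When 1 array was left out, log2 differences that reversed ranged as follows: Sema3a -0.17 to 0.25, Sema4a -0.0533 to 0.29, Sema4d -0.24 to 0.33, Sema6a -0.0974 to 0.23, Sema6b -0.0173 to 0.10, Plxna1 -0.0806 to 0.13, Plxna4 -0.23 to 0.48, Plxnc1 -0.58 to 0.21, Epha6 -0.0003 to 0.33, Epha7 -0.78 to 0.0188, Ephb4 -0.30 to 0.0476, Robo3 -0.24 to 0.0108, Slit1 -0.37 to 0.0516. Signal over background limits the 19 members whose arrays were all at or below the yardstick.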
